A study of Mus musculus and Mus musculus x Mus spretus with 8 samples.

Results

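The genes described are 10 zinc transporter genes, the importers Slc39a6, Slc39a7, Slc39a8, Slc39a10, Slc39a13 and Slc39a14 and the exporters Slc30a1, Slc30a3, Slc30a5 and Slc30a9, out of 24060 gene symbols measured. They were listed by name around Slc39a6, which was picked for its high level, so that level is a description and was not tested. The data are 8 single cells labelled as glomus cells, the oxygen-sensing cells of the carotid body, from wild type mice at postnatal day 4 to 5. The strain label is C57BL/6 for 7 cells and, for cell 2, C57BL/6 X SPRET/EiJ, which names a hybrid with a wild-derived strain. The cells were chosen by the study for expression of Th, Uchl1 and Kcnk3, they form 1 group with no control group, and the labels tie no cell to an animal. They were therefore treated as 1 sample of 8 cells, with no p-value, and each spread is that among these cells and may include differences between animals.

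Zinc is carried across membranes by 2 protein families. ZIP proteins, encoded by Slc39 genes, move zinc into the cytosol from outside the cell or out of organelles, and ZnT proteins, encoded by Slc30 genes, move it out of the cytosol into organelles or out of the cell. In secretory cells zinc is taken up into vesicles and is needed by enzymes that mature in the secretory pathway. Free zinc in the cytosol is held low by metallothioneins, whose genes, with Slc30a1, are switched on by the zinc-sensing transcription factor MTF1.

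The ZIP members all belong to the subfamily that carries a metalloprotease-like zinc site, and they differ in its first residue. The coding stretches of that site are shown because its first residue divides the listed importers into a histidine form and a glutamate form. The glutamate form is that of Slc39a8 and Slc39a14, known to carry iron and manganese as well as zinc. The longest coding sequence of all 14 Slc39 genes in the mm10 annotation (GENCODE M21) was scanned, allowing only histidine or glutamate first. The site was found in 9. Its first residue was histidine in Slc39a4, Slc39a5, Slc39a6, Slc39a7, Slc39a10, Slc39a12 and Slc39a13, and glutamate in Slc39a8 and Slc39a14. Each line gives the 27 coding bases of the site, 5′ to 3′ on the gene's own strand, with the codon of the first residue in capitals.
Slc39a7: CACgaagtgcctcatgaggttggggat
Slc39a10: CATgaactgccacatgaattaggtgat
Slc39a13: CATgagatcccccatgaggtgggtgac
Slc39a8: GAGgagtttcctcatgagttaggggac
Slc39a14: GAGgaattccctcatgagctgggagac
The Slc39a7 site lies within 1 exon, at chr17:34029549-34029575 on the minus strand, and in the other 4 genes an intron interrupts the codons.

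The labelled cell type was checked against markers. Ddc and Chga, glomus markers that the study did not select on, were detected, at 1 RPM (the authors' reads scaled to depth) or more, in 8 of 8 cells. So were the selection genes Th, Uchl1 and Kcnk3, which checks nothing, since the cells were chosen for them. All 4 endothelial markers, 4 immune markers and 4 erythroid markers had 0 reads in every cell, and the 4 fibroblast markers summed to at most 0.308 RPM. The glial markers Gfap, S100b and Sox10 had 0 reads in every cell, and Fabp7 was at 71.6 RPM in cell 2 and at 0 in the other 7. Of 3 mural markers Pdgfrb was detected in cells 3, 5, 6 and 7, at 350, 72.2, 31.2 and 94.2 RPM. Acta2 was detected in 5 cells, with a highest level of 8.48 RPM in cell 6, and Myh11 reached at most 0.447 RPM. Of the noradrenergic markers Slc6a2 was detected in 5 cells and Dbh in cells 4 and 8, and Pnmt had 0 reads. Depth ran from 3960200 to 30218206 reads and 4040 to 6956 genes were detected per cell. Cell 4 had the highest Dbh (2588 RPM) and Slc6a2 (1873 RPM).

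Slc39a6 encodes ZIP6, also called LIV-1, a plasma membrane zinc importer first described as an estrogen-regulated gene of breast cancer cells. It was detected in all 8 cells, at 1339, 877.5, 2316, 427.3, 3764, 5515, 1063 and 1737 RPM in cells 1 to 8. Cells 5 and 6 were highest and cell 4 lowest, and the highest level was 12.9 times the lowest, or 6.28 times without cell 4. These levels rest on 2112 to 39013 reads and 0.0427% to 0.551% of a cell's reads. The median was 1538 RPM, and the SD of log2(RPM + 1) was 1.18. Among the 20 genes nearest to it in mean log2 level, that SD had a median of 0.73, and 6 of the 20 had a larger one.

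By mean log2 level Slc39a6 took place 13 of all symbols, but by median RPM it took place 23, so its standing among the 20 highest genes depends on the measure. At the limit of the 20 highest by mean log2 level stood Tcf4, inside at place 20 with a mean of 10.34, and Eif4g2, outside at place 21 with 10.32, against 10.65 for Slc39a6. Within single cells its place was 6 in cell 6, 11 in cell 5, 19 in cell 3, 26 in cell 8, 45 in cell 1, 88 in cell 7, 148 in cell 2 and 660 in cell 4. It was thus among the 20 highest genes in 3 of 8 cells. With 1 cell left out the place by mean log2 level was 12 to 18.

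**Figure D1:**
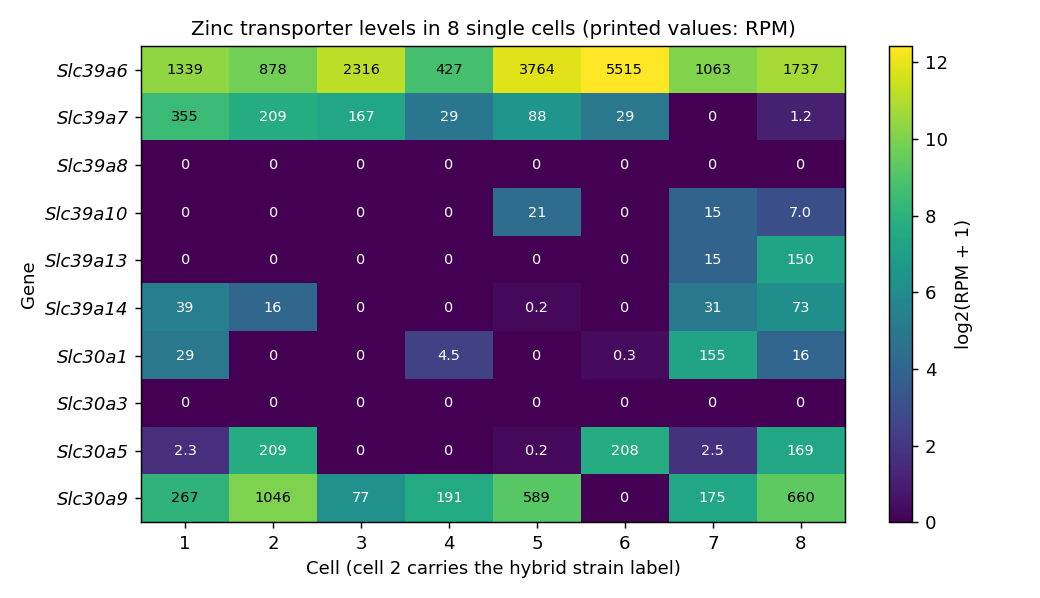
Level of the 10 zinc transporter genes (rows) in each of the 8 cells (columns); colour gives log2(RPM + 1) and the printed value is RPM. Slc39a6 lies between 427.3 and 5515 RPM in all cells, Slc39a8 and Slc30a3 are at 0 in all, and the remaining members are present in some cells and at 0 in others.

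The other 9 members were far more uneven. Slc39a7 and Slc30a9 were each detected in 7 cells, Slc30a5 in 5, Slc39a14 and Slc30a1 in 4, Slc39a10 in 3, Slc39a13 in 2, and Slc39a8 and Slc30a3 in none. With Slc39a6, 3 of the 10 members were detected in at least 6 cells, where 14.2% of all symbols were. In all 8 cells 1 member was, against 4.88% of symbols, and 2 members had 0 reads in every cell, against 51.7%. Over the complete families, which the choice of members does not shape apart from Slc39a6, 4 of 24 genes passed (16.7%), close to that background. Of the 24, 10 were detected in no cell (41.7%), against 55.2% of all symbols.

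Slc39a7 encodes ZIP7, which releases zinc from the endoplasmic reticulum. Its level had a median of 58.9 RPM, or 29.3 RPM without cell 1, 2, 3 or 5 and 88.5 RPM without cell 4, 6, 7 or 8, and ran from 0 reads in cell 7 and 1.16 RPM in cell 8 to 354.8 RPM in cell 1. Cells 1, 2 and 3 were highest, each at 167.4 RPM or more, and the order did not follow Slc39a6, which was highest in cells 5 and 6. This level is uncertain, because 84.2% of the longest Slc39a7 transcript (chr17:34028269-34031682, minus strand) is shared with a read-through gene model on the same strand that is not among the symbols of the table.

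Slc39a13 encodes ZIP13, an importer of Golgi and vesicle membranes known for its part in connective tissue. It had 150 RPM in cell 8 and 14.6 RPM in cell 7, and 0 reads in the other 6 cells. The cells with Slc39a13 were those in which Slc39a7 was lowest. Levels of different genes were compared per kilobase of exon, as log2(RPM per kb + 1). Slc39a7 minus Slc39a13 was above 0 in 6 cells and below 0 in cells 7 and 8, with a median of 4.38 (SD 4.19) and a range of -4.46 to 7.11. That median was 3.62 without cell 1, 2, 3 or 5, 5.14 without cell 4, 6, 7 or 8, and 7.63 with a pseudocount of 0.1. Only 1 cell, cell 8, detected both genes. A small part of Slc39a13, 4.42% of its exon bases, overlaps exons of Psmc3 on the opposite strand.

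Slc39a10 encodes ZIP10, the closest relative of ZIP6, with which it can form a joint importer. It was detected at 20.8 RPM in cell 5, 14.6 RPM in cell 7 and 6.96 RPM in cell 8, and had 0 reads in the other 5 cells. The 3 cells with Slc39a10 were spread over the range of Slc39a6. In 8 of 8 cells Slc39a6 was the higher, and Slc39a6 minus Slc39a10 had a median of 7.74 log2 units per kb (SD 1.32, range 6.27 to 10.40). Because 5 of these differences are set by a value of 0, the size depends on the pseudocount (10.55 at the median when 0.1 was added).

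Slc39a14 and Slc39a8 encode ZIP14 and ZIP8, the importers with glutamate at the site shown above, which carry manganese and iron as well as zinc. Slc39a14 reached 73.0 RPM in cell 8, 38.9 in cell 1, 30.5 in cell 7 and 16.1 in cell 2, and was below 1 RPM in the other 4 cells. Slc39a8 had 0 reads in all 8 cells, which over the 69360751 reads of the table allows up to 0.0433 RPM, or 0.0766 RPM without cell 2, the deepest. Slc39a8 minus Slc39a14 was below 0 in 5 cells and exactly 0 in 3, with a median of -0.68 log2 units per kb (SD 1.22). With a pseudocount of 0.1 that median was -2.15, and with 1 cell left out it was -1.34 (without cell 3, 4, 5 or 6) to -0.03 (without cell 1, 2, 7 or 8). The other carriers of these metals differed from one another. Slc11a2, which encodes the iron and manganese importer DMT1, was found in 8 of 8 cells, with a median of 278.5 RPM, while Slc40a1, which encodes the iron exporter ferroportin, and the manganese exporter gene Slc30a10 had 0 reads in every cell.

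Among the exporters, Slc30a9 had the highest level. It encodes ZnT9, a transporter of the mitochondrial membrane (chr5:67306955-67358443, plus strand). Its median was 228.7 RPM and it ran from 0 reads in cell 6 to 1046 RPM in cell 2. In the 7 cells that detected it the lowest level was 77.2 RPM, and cell 6, which had the most Slc39a6, stood apart from them. In cell 2, Slc30a9 exceeded Slc39a6 in RPM, but per kilobase of exon Slc39a6 was the higher in all 8 cells.

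Slc30a1 encodes ZnT1, the exporter of the plasma membrane. It had 154.6 RPM in cell 7, 29.3 in cell 1, 15.5 in cell 8, 4.45 in cell 4 and 0.283 in cell 6, and 0 reads in cells 2, 3 and 5. Part of Slc30a1, 8.92% of its exon bases, overlaps exons of 1700034H15Rik on the opposite strand. Against the surface importer, Slc30a1 minus Slc39a6 was below 0 in all 8 cells, with a median of -7.26 log2 units per kb (SD 2.45, range -10.33 to -3.10). Cell 7, with the highest Slc30a1, gave the smallest difference. Slc30a9 minus Slc30a1 was above 0 in 6 cells and below 0 in cells 6 and 7, with a median of 3.00 (SD 2.56). The exon union of Slc30a9, 12374 bases, is longer than its longest transcript of 5711 bases, and with the latter as length the median was 4.04. In cell 7 the sign also depends on this length, as Slc30a9 was the higher there in RPM (174.6 against 154.6).

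Slc30a5 encodes ZnT5, which pairs with ZnT6, the product of Slc30a6, to load zinc onto enzymes in the early secretory pathway. Slc30a5 was present at 2 kinds of level, 209.2, 208.1 and 168.8 RPM in cells 2, 6 and 8, and 2.47 RPM or less in the other 5. Slc30a6 was detected in cells 1, 7 and 8, at 92.7, 16.5 and 2.03 RPM. The pair was detected together in 3 cells (1, 7 and 8), and in these the more abundant partner was Slc30a6 in cells 1 and 7 and Slc30a5 in cell 8. The difference Slc30a5 minus Slc30a6 had a median of 0.02 log2 units per kb and an SD of 3.44, with 4 cells above 0, 3 below and 1 at 0. Slc30a7, whose product ZnT7 serves the Golgi apparatus and works without ZnT6, was detected in 6 cells. Its median was 8.50 RPM (4.66 to 12.3 RPM with 1 cell left out), and it had 233.3 RPM in cell 1. Of its exon bases, 16.0% overlap exons of other gene models on the opposite strand.

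Slc30a3 encodes ZnT3, the transporter that fills synaptic vesicles with zinc, and Slc30a8 encodes ZnT8, its counterpart of insulin granules. Both had 0 reads in all 8 cells, with the upper limits given for Slc39a8. Slc30a2, a vesicle form typical of secreting epithelia, also had 0 reads in every cell. The vesicle and endosome transporter gene Slc30a4 was detected in 4 cells, at 109.7 RPM in cell 8, 59.1 in cell 1, 13.4 in cell 7 and 1.13 in cell 3. Among the remaining importers, Slc39a1 was detected in 5 cells with a highest level of 35.2 RPM, Slc39a3 in 4 with 65.5 RPM and Slc39a9 in 5 with 225.6 RPM. Slc39a2, Slc39a4, Slc39a5 and Slc39a12 had 0 reads and Slc39a11 had 1 read in all. Slc39a1 is uncertain, as 41.2% of its transcript is nearly identical to a processed pseudogene.

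Per kilobase of exon, Slc39a6 led all 24 genes in 8 of 8 cells, with a median of 377.6 RPM per kb (SD 1.18 on the log2 scale, range 104.9 to 1354). The exon union used as length is 12374 bases for Slc30a9, against 5711 for its longest transcript, which lowers Slc30a9 here. On this length Slc39a6 exceeded the next highest gene of the same cell 2.39-fold to 47.5-fold. By mean log2 level it was followed by Slc30a9 (median 18.5 RPM per kb) and Slc39a7 (22.8 RPM per kb), then by Slc30a5, Slc39a1, Slc39a3, Slc30a1, Slc30a7, Slc30a4, Slc39a9, Slc39a14, Slc30a6, Slc39a13 and Slc39a10. The step from Slc39a6 to Slc30a9 had a mean difference of 4.49 log2 units against an SD of 2.78. It was the single step between neighbours in this order that was larger than the SD of the within-cell difference. Slc39a6 was picked for its level and neighbours were sorted by these same means, so this is a description and no support. Slc30a9 and Slc39a7 did not differ beyond their spread, with a mean difference of 0.09 (SD 3.23) and Slc30a9 higher in 5 cells. The first 3 genes were the same with the longest transcript as length, with another scaling or pseudocount, and with any 1 cell left out.

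**Figure D2:**
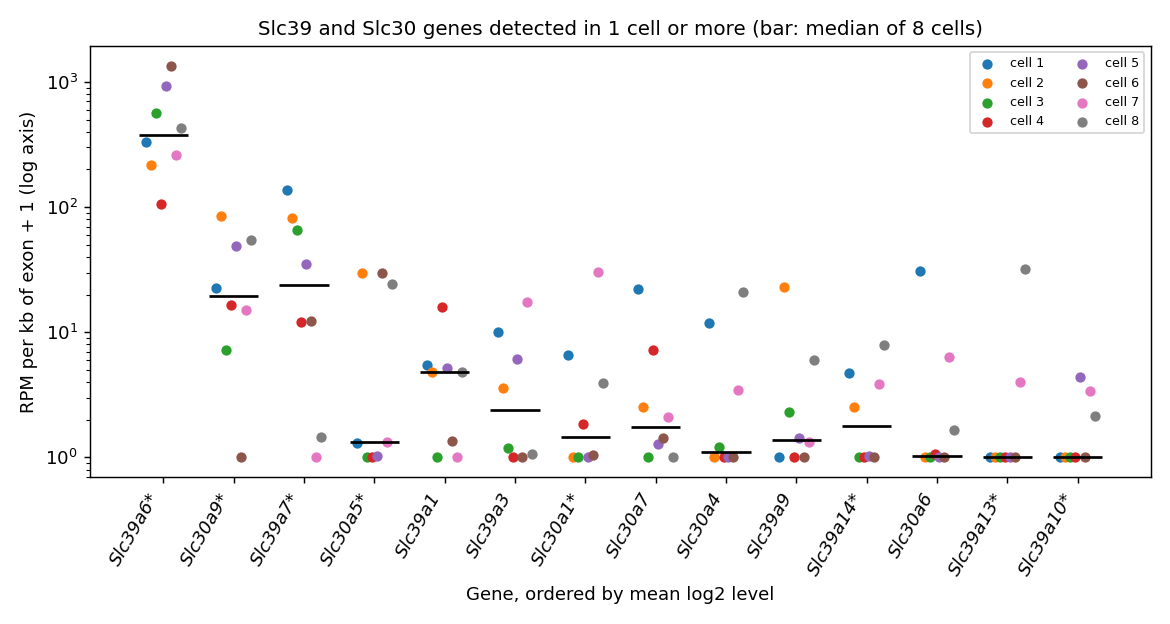
RPM per kb of exon, plus 1, on a log axis for the 14 Slc39 and Slc30 genes detected in at least 1 cell; points are the 8 cells, black bars the medians, and asterisks mark the listed members. Slc39a6 has no cell below 104.9 RPM per kb, whereas each of the other 13 genes has at least 1 cell at 0.

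The levels were also summed over each family within each cell. With the exon union as length, the Slc39 sum exceeded the Slc30 sum in 8 of 8 cells. The median ratio was 5.61, with a range of 2.85 in cell 2 to 98.5 in cell 3. As log2, with 1 added to each sum, the median was 2.45, or 2.01 with the longest transcript as length. Slc39a6 made up a median of 89.7% of the Slc39 sum (SD 12.3 percentage points), from 66.0% in cell 2 to 99.1% in cell 6. With the longest transcript as length that median was 86.3%. With Slc39a6 left out and the exon union as length, the remaining Slc39 genes exceeded the Slc30 sum in 3 of 8 cells (1, 3 and 4). The ratios ran from 0.403 to 10.3, with a median of 0.978 and 1.15 in cell 4. On this length, the direction over both families thus rested on Slc39a6 in the other 5 cells. The ratios without Slc39a6 were not recomputed with the longest transcript as length. For Slc30a9 that transcript has 5711 bases against 12374 for the exon union, which raises its part of the Slc30 sum. The median ratio, the count of 3 cells and the direction in cell 4 may therefore change with the length. With the exon union as length, the leading exporter was Slc30a9 in 5 cells, Slc30a6 in cell 1, Slc30a5 in cell 6 and Slc30a1 in cell 7. The leader in cells 1 and 7 depends on the length. In RPM, Slc30a9 was above Slc30a6 in cell 1 (266.9 against 92.7) and above Slc30a1 in cell 7 (174.6 against 154.6).

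**Figure D3:**
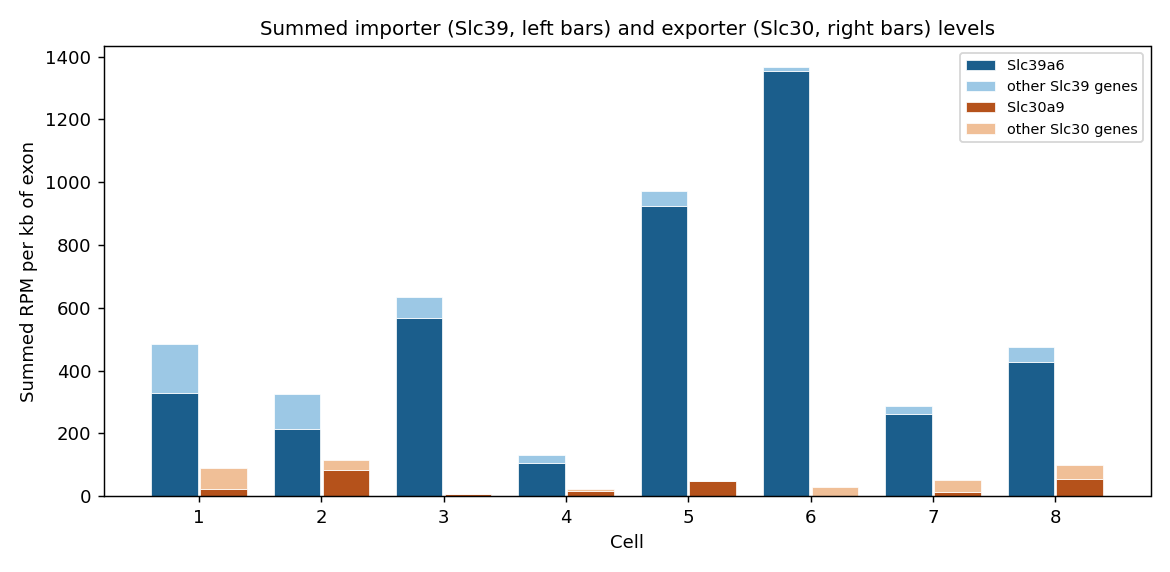
Summed RPM per kb of exon of the Slc39 genes (left bar, Slc39a6 dark) and of the Slc30 genes (right bar, Slc30a9 dark) in each of the 8 cells. The left bar is the taller in every cell and is mostly Slc39a6, from 66.0% in cell 2 to 99.1% in cell 6.

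The number of transporters present also varied between cells. Of the 24 family genes, 12 were detected in cells 7 and 8, 11 in cell 1, 9 in cell 2, 8 in cell 5, 6 in cell 4, 5 in cell 3 and 4 in cell 6. Cells 1, 7 and 8 were also those with the most genes detected in all, 6956, 6257 and 6699, and cell 6 was among the lowest with 4242. Cell 5, with the fewest genes at 4040, detected more of the family than cells 3 and 4, which had 5243 and 5140 genes. The part that this yield has in the absence of single transporters from single cells was not tested. Fewer transcripts of a gene in a cell and the loss of its few transcripts before amplification cannot be told apart here.

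Genes of the zinc response were examined next to the exporter that shares their control. Of 5 genes, Mt1, Mt3 and Mtf1 were detected in at least 6 cells (60%, against 14.2% of all symbols). Mt2 was detected in 4, and Mt4 had 0 reads throughout. Mt1, which encodes a zinc-binding metallothionein found in most tissues, had a median of 20.2 RPM and ran from 0 reads in cell 4 to 381.8 RPM in cell 1. Mt3, the metallothionein of brain, had a median of 23.0 RPM and was highest in cell 3 at 82.1 RPM. Mt2 was highest in cell 5, at 120 RPM, but 69.5% of its transcript is shared with an antisense gene model. Mtf1, the zinc sensor itself, had a median of 12.8 RPM (7.24 to 18.5 RPM with 1 cell left out) and was highest in cell 2 at 259 RPM, where Slc30a1 had 0 reads and Mt1 17.4 RPM. The summed level of Mt1, Mt2, Mt3 and Mt4 was 0 in cell 4 and 451.2 RPM in cell 1. Slc30a1 and Mt1 were both at 10 RPM or more in cells 1, 7 and 8, but Slc30a1 was highest in cell 7 and Mt1 in cell 1. Each of Mt1, Mt2, Mt3, Mtf1 and Slc30a1 had its highest level in a different cell.

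The start regions of Slc30a1 and Mt1 are shown because Slc30a1 is the member known as a target of MTF1, and Mt1, detected in 6 cells, is another known target. Each is a RefSeq window of build GRCm38.p6, from 250 bases before to 50 bases after the start site, on the plus strand. Capitals mark matches to the core of the metal response element, TGCACNC or TGCGCNC, on either strand. The Slc30a1 window is chr1:191906531-191906830 and the Mt1 window chr8:94178839-94179138.
Slc30a1: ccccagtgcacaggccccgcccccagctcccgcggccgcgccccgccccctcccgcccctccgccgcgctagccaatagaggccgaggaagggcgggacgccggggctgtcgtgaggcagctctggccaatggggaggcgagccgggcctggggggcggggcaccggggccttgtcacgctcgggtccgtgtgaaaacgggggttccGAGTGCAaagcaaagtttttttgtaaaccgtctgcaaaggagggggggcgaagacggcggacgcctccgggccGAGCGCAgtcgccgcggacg
Mt1: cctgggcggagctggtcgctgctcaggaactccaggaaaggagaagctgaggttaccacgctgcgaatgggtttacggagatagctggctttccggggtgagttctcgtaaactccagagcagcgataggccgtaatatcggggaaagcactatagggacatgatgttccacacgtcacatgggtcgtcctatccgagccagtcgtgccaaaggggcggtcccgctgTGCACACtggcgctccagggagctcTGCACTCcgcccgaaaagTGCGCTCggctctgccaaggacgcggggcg
The Slc30a1 window holds 2 matches, the Mt1 window 3, the Mt2 window 4 and the Mt3 window 1. Exporter genes outside the members hold as many as Slc30a1 or more in Slc30a4 (3), Slc30a10 (3) and Slc30a2 (2), and 0 in Slc30a6 and Slc30a7. Of 32851 windows of the same length, 25.7% hold at least 1 match and 7.11% at least 2. Among the 8 members with a window, that of Slc30a5 and that of Slc39a13 hold 1 match each, 1 of the windows of Slc39a8 and of Slc30a3 holds 1, and the windows of Slc39a7, Slc39a10 and Slc30a9 hold none. A match is a run of letters and not a measured binding site.

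Genes linked to ZIP6 by its biology or position were taken from a list of 9, chosen with earlier results of these data known. Of these, 6 were detected in at least 6 cells (66.7%, against 14.2% of all symbols). The other 3 had 0 reads in every cell (33.3%, against 51.7% of all symbols). They were Snai1, Snai2 and Cdh1, the transcription factors and the epithelial cadherin of cell detachment. Ncam1, an adhesion molecule that associates with the ZIP6 and ZIP10 complex, was found in 8 of 8 cells (median 886.0 RPM), from 677.0 in cell 2 to 1749 in cell 6. Stat3, a transcription factor known to act upstream of Slc39a6 in other tissues, ran from 0 reads in cell 4 to 680.2 RPM in cell 6, with 6.06 RPM or more in 6 cells. Gsk3b, a kinase that ZIP6 has been linked to, had a median of 144.4 RPM and was below 1 RPM in cell 5 alone. Its relative Gsk3a had a median of 8.09 RPM (5.08 to 11.1 RPM with 1 cell left out). Prnp, the prion protein gene, whose family shares ancestry with this ZIP subfamily, was present in 7 cells (median 344.8 RPM).

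Elp2, a subunit gene of the Elongator complex, lies head to head with Slc39a6 on chromosome 18. The Slc39a6 gene spans 24579881 to 24603817 on the minus strand and Elp2 24602866 to 24639507 on the plus strand. The gene bodies share 952 bases, but their exons share 0. Elp2 was found in 8 of 8 cells (median 109.8 RPM), with 257.8 RPM in cell 6, 182.8 in cell 5, 138.0 in cell 3 and 1.01 in cell 4, its lowest. The highest 3 cells and the lowest cell were the same for Elp2 and Slc39a6. Over the 8 cells Pearson's r of their log2 levels was 0.79 and Spearman's rho 0.88, and Elp2 took place 22 of 1172 genes by r; without cell 4, where both were lowest, r was 0.60. For Th the r with Slc39a6 was 0.75, and for Ncam1 it was 0.62, or 0.32 without cell 6. These are descriptions over 8 cells that differ in depth, and all genes of a cell share its library.

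The 5 genes most like Slc39a6 were found among 1172 others detected in all 8 cells, by Pearson's r of log2(RPM + 1). They were Eif3h, a subunit gene of translation initiation factor eIF3 (r 0.93), Actr10, a dynactin subunit gene (r 0.91), Bnip2 (r 0.90), Uqcrh, a subunit gene of respiratory complex III (r 0.89), and Coro1b, an actin-binding coronin gene (r 0.87). Eif3h had 366.8 RPM in cell 6, 334.1 in cell 5 and 11.3 in cell 4. All 5 were lowest in cell 4, as was Slc39a6. The choice depends on single cells, since 0 of the 5 remained among the 5 most alike without cell 4 and 1 without cell 5 or cell 6. The r of each of the 5 was 0.81 or more with any 1 cell left out. The 5 were picked for high r in these same cells, so that value is no separate support.

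**Figure D4:**
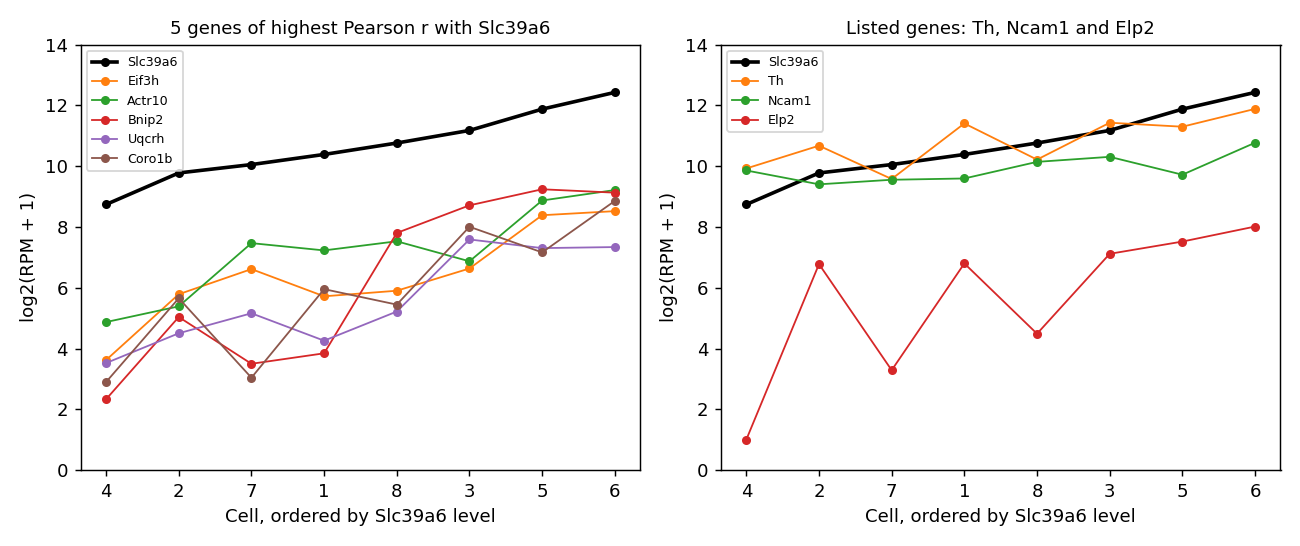
log2(RPM + 1) in the 8 cells, ordered by their Slc39a6 level, for Slc39a6 (black) with the 5 genes of highest Pearson r (left) and with Th, Ncam1 and Elp2 (right). Lines only join the points of a gene; the 5 genes on the left all have their lowest value in cell 4, and Elp2 falls to 1.01 RPM there.

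Other carriers of metals were taken from a further list. Of its 9 genes, 4 were detected in at least 6 cells (44.4%, against 14.2% of all symbols). Trpm7, which encodes a channel kinase that lets zinc and magnesium in, was found in 8 of 8 cells (median 247.0 RPM), as was Slc11a2. Trpm7 was lowest in cells 3 and 6, at 18.6 and 77.5 RPM, where Slc39a6 was among the highest 3, and its r with Slc39a6 over the 8 cells was -0.65. The copper importer gene Slc31a1 was present in 7 cells (median 104.5 RPM), highest in cell 4 at 728.7 RPM. The copper pump gene Atp7a was present in 6 cells (median 40.1 RPM, or 4.95 RPM without cell 1, 2, 7 or 8 and 75.2 RPM without cell 3, 4, 5 or 6). Tfrc, the transferrin receptor gene, was at 445.9 RPM in cell 4 and 116.2 RPM in cell 1 and at 3.01 RPM or less elsewhere. Mcoln1, a lysosomal channel gene, was detected in cell 2 alone. Tmem163, a vesicular zinc transporter gene, and Slc11a1, an iron transporter gene of macrophages, had 0 reads in all 8 cells.

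**Figure D5:**
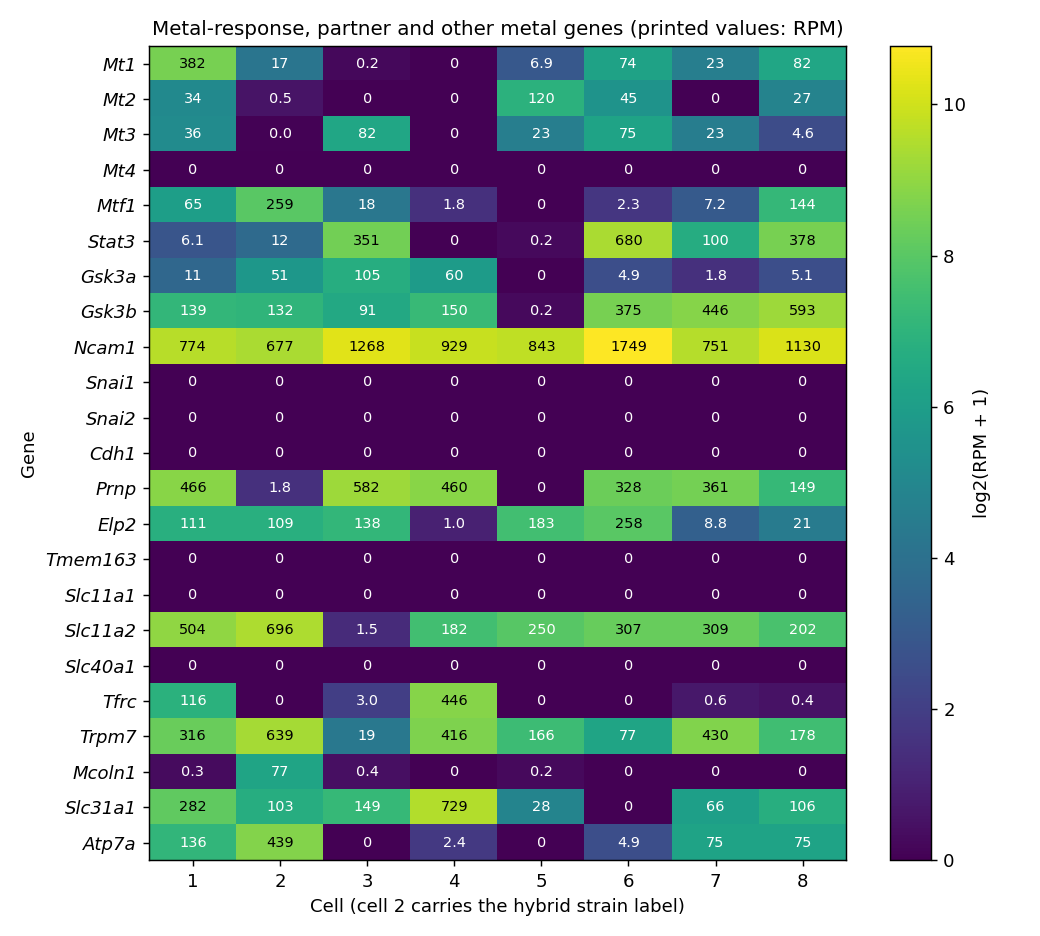
Level of the metallothionein and zinc-sensing genes, the genes linked to ZIP6 and other metal carriers (rows) in the 8 cells (columns); colour gives log2(RPM + 1) and the printed value is RPM. Ncam1, Elp2, Slc11a2 and Trpm7 reach 1 RPM in every cell, and Mt4, Snai1, Snai2, Cdh1, Tmem163, Slc11a1 and Slc40a1 are at 0 in every cell.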

How the data were processed

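RNA of 8 single cells was reverse transcribed, amplified by PCR and made into Nextera libraries, per the labels' protocols. Reads were aligned with Bowtie to mm10, per the submitters' processing notes; its version, the read counter, the annotation and strandedness are not stated in what was used here. For each of 24060 symbols the authors deposited a raw read count and an RPM value, per the file headers, and the RPM equalled the count over the cell's total. No molecular identifiers are mentioned, so PCR copies cannot be told apart and limits cover counting error only.

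Detection means 1 RPM or more. A count of 0 allows 3 reads, 0.0993 to 0.758 RPM per cell. Log2 levels used a pseudocount of 1, which understates differences of low genes. Levels of different genes were divided by the exon union of GENCODE M21 (mm10). Near-identical copies (95% identity over 50 bases) were sought among its transcripts with BLAST 2.17.0. Python 3.11.15 and Biopython 1.88 were used. The code for the ranking by r was checked on simulated data with planted near-copies of a profile. That checks the code only and is no support for the genes ranked. Named genes are the members, both families, the fixed lists, the genes at the limit of the 20 highest and the 5 most alike. Some marker genes are not reported here. Members and lists were chosen with earlier results of these data known. Alternatives were other pseudocounts, scaling, lengths and detection limits, and leaving out each cell. No test between groups was possible with 1 group.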

Additional observations from a re-analysis of the deposited data

Results flagged for a closer look

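Of the 34 values checked, 4 had 1 cell far from the other 7, by a gap to the nearest cell relative to the whole range above the 95% limit of Dixon's test; chance alone gives this in about 1 in 20 values. Slc30a9 was at 0 RPM in cell 6, against 77.2 RPM or more elsewhere. Slc11a2 was at 1.51 RPM in cell 3, against 182.5 RPM or more elsewhere. Mcoln1 was at 77.1 RPM in cell 2, against 0.377 RPM or less elsewhere. Gsk3b was at 0.223 RPM in cell 5, against 90.8 RPM or more elsewhere. The cause was not tested in any of them.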

How the results depend on the processing

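No paired analysis was possible because the samples form 1 group. Of 268 values recomputed under alternatives, 252 moved by less than the spread between cells or by less than 1.5 times for counts, and none changed sign. Part of the 252 had little room to move, such as medians of 0 that stayed at 0 with any 1 cell left out. Where the spread is wide the limit is loose: Slc39a7 minus Slc39a13 (SD 4.19) went from 4.38 to 7.63 and still counted as within it. The place of Slc39a6 was 23 by median RPM, an alternative chosen after seeing the data, against 13. At a limit of 1 read, 7 of the 24 family genes were detected in at least 6 cells, against 4. A pseudocount of 0.1 moved Slc39a6 minus Slc39a10 to 10.55 and Slc39a8 minus Slc39a14 to -2.15, and the medians of the 4 members at a median of 0 to -3.32. Of the 5 genes most like Slc39a6, 2 remained with Spearman's rho and 0 to 4 with 1 cell left out. Scaling by size factors shifted cells by -0.18 to 0.15 log2 units at the median gene. With 1 cell left out the median of Slc39a6 was 10.39 to 10.76 and its share of the Slc39 sum 89.6% to 89.8%. Levels of a few reads are limited by depth.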
